A study of Apostichopus japonicus with 12 samples.

Results

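Intestines of the sea cucumber Apostichopus japonicus were compared between animals held for 6 h at 26 °C and controls kept at 18 °C, with 3 animals in each group. These 6 libraries were chosen by their labels and are 6 of the 12 in the series. The animals in the 26 °C group were warmed at 2 °C per hour until the water reached 26 °C, and the 6 h were counted from that moment. Controls stayed at 18 °C throughout and their sampling time is not given, so the temperature cannot be told apart from the hours that passed and the warming itself. All animals weighed about 100 g, no age is given, and each library was made from the RNA of a single animal. The other groups, 26 °C for 48 h and 30 °C for 6 h with 3 animals each, entered the estimate of spread and a side-by-side comparison at the end. Every gene model of the deposited table was considered, 30221 in all, and 18729 were tested, those that averaged 0.5 FPKM or more across all 12 libraries. FPKM, fragments per kilobase of gene and per unit of scaled depth, puts the level of a gene on a scale per length, so levels of different genes can be set beside each other.

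The heat shock response is the shared answer of animal cells to warming. Proteins that begin to unfold are bound by small heat shock proteins and by HSP70, refolded by HSP70 with its DnaJ and exchange-factor helpers, and handed on to HSP90, the chaperonin rings or the proteasome. Separate sets of chaperones serve the endoplasmic reticulum, where secreted proteins fold, and the mitochondrion. Apostichopus japonicus is a cold-water animal that stops feeding and aestivates in warm summers, when its gut shrinks, and the intestine is the organ most often studied in that state.

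From the deposited values, 2095221, 2299986 and 3627690 reads on genes were recovered for 26 °C 6 h animals 1 to 3, against 3109296, 2665272 and 3713358 for control animals 1 to 3. The 3 libraries of a group were different animals and differed widely. The Pearson correlation of log2(FPKM + 1) over the genes tested, across genes and with no test, ran from 0.690 to 0.740 among 26 °C 6 h animals, from 0.735 to 0.764 among controls and from 0.678 to 0.731 between the groups, so animals of a group were little more alike than animals of different groups. With each library thinned to 1700000 reads, 12707, 14692 and 16661 genes had a read in 26 °C 6 h animals 1 to 3, against 15186, 17155 and 18453 in controls (14687 ± 1977 against 16931 ± 1645, SD, n = 3 each, exact two-sided permutation p = 0.2, where 0.1 is the smallest possible). Gut epithelium markers, the check on the tissue label, were uneven. Villin BSL78_02149, the actin bundler of microvilli, was present in every library, with 27.7, 21.6 and 72.7 FPKM in 26 °C 6 h animals and 69.4, 71.8 and 53.6 FPKM in controls. Mucin-3A BSL78_30175, a membrane mucin of the gut surface in mammals, was low or not seen, with 7.70, 0.155 and 1.23 FPKM at 26 °C and 0, 0.111 and 1.21 FPKM in controls. Neither passed the test. Of the 44 gut epithelium models 27 were tested and 5 were at 0 in all 6 libraries, and together they took 0.0619, 0.131 and 0.367% of the reads in 26 °C 6 h animals, against 0.0956, 0.146 and 0.212% in controls. Fewer cells of a type and less RNA per cell cannot be told apart in such tissue samples.

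After 6 h at 26 °C, 12 gene models differed from control at an adjusted p below 0.05 (limma, two-sided, Benjamini-Hochberg over all genes tested). Of these 9 rose, which is 0.0481% of the genes tested, and 3 fell, which is 0.016%, so that 0.0641% were called in either direction. The 9 higher models were 2 of HSP70, 2 of the small heat shock protein HSP26, the mitochondrial chaperonin Hsp56, an IMD-like protein and 3 models that the file describes as hypothetical. The 3 lower models were a monocarboxylate transporter, heterogeneous nuclear ribonucleoprotein L and a hypothetical protein. The plot of the called genes by animal shows that in every case all 3 animals of a group lay on the same side of all 3 of the other.

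**Figure D1:**
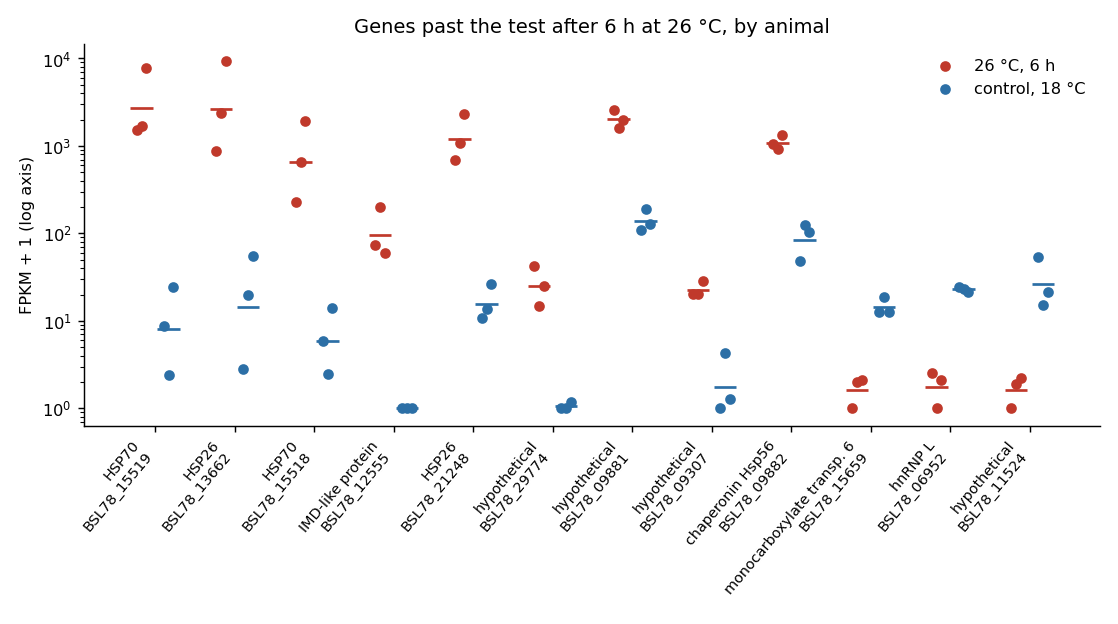
FPKM + 1 on a log axis of the 12 gene models past the test, with 1 point per animal, 26 °C 6 h in red to the left of control in blue, and a bar at the geometric mean of each group. The groups of each gene do not overlap, and the IMD-like protein lies at 0 FPKM in all 3 controls.

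Far more genes had libraries that did not overlap than passed the test. All 3 animals at 26 °C lay above all 3 controls for 901 genes (4.81%) and below them for 1339 (7.15%), and at an unadjusted p below 0.05 there were 631 higher (3.37%) and 879 lower (4.69%). These shares are the background for each count of a gene list given further on. The median log2 difference over all genes was -0.08. Log2 differences are of FPKM + 1, which understates the change of low genes. With each library rescaled to a common sum the median was -0.29, and the non-overlapping genes split into 456 higher (2.43%) and 1432 lower (7.65%). Those rescaled shares are the background for each list count given after the same rescaling. At an unadjusted p below 0.05 the split was then 368 higher and 1149 lower.

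The calls differed in how firmly they stood. IMD-like BSL78_12555, HSP70 BSL78_15519 and HSP26 BSL78_21248 stayed past the threshold in 20 of 21 alternative settings, all but a fit of these 2 groups alone, which called 0 genes (585 higher and 831 lower at an unadjusted p below 0.05). The other 9 passed in between 5 and 14 of the 21, with the same direction in every setting. Leaving out a library moved the count of calls by over 1.5 times in most cases. It was 7 without 26 °C 6 h animal 2, 4 without animal 3, and 5, 6 and 5 without control animals 1, 2 and 3. It was 5, 5 and 4 without the 48 h animals 1, 2 and 3, and 5 and 30 without 30 °C animals 1 and 3.

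IMD-like BSL78_12555 (scaffold MRZV01000415.1, 60055 to 71869, forward strand, coding length 573) gave the smallest p of any gene. It had 72.8, 199 and 58.1 FPKM in 26 °C 6 h animals 1 to 3, against 0 FPKM in each of the 3 controls. That is 502 reads against 0, and with a floor of 3 reads in each control the mean was at least 79.2-fold higher (adjusted p = 0.000161). The fitted log2 difference, which depends on the pseudocount where a group is at 0, was 6.58 (SE 0.53). That SE pools the spread of all 4 groups, and the control, 30 °C and 48 h animals, all at 0 FPKM, added none. The small SE and p therefore rest in part on groups without spread. In a limma fit of these 2 groups alone the adjusted p was 0.181. All 3 warmed animals carried it, the highest being animal 2. As background, in Drosophila IMD is the death-domain adaptor that carries the signal of bacterial cell wall from its receptors to an NF-kappaB factor, and the file gives this model a Death domain. Its description is shared by 5 models, among which reads could be split.

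Small heat shock proteins bind unfolding proteins without using ATP and keep them from clumping. All 6 models of the list were tested, and 2 rose. HSP26 BSL78_13662 (scaffold MRZV01000464.1, 241895 to 242536, reverse strand, coding length 642) had 868, 2382 and 9268 FPKM in 26 °C 6 h animals, against 1.82, 18.9 and 53.8 FPKM in controls, a log2 difference of 7.52 (SE 1.09, adjusted p = 0.0300). HSP26 BSL78_21248 (scaffold MRZV01000980.1, 70357 to 71151, forward strand, coding length 795) had 681, 1069 and 2338 FPKM at 26 °C, against 9.77, 12.5 and 25.1 FPKM in controls (log2 6.26, SE 0.70, adjusted p = 0.00299). In each, animal 3 of the warmed group was highest and animal 1 lowest, and the lowest warmed animal was still far above the highest control.

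The other 3 HSP26 models missed the threshold with differences of similar size. HSP26 BSL78_13663 had 169, 1047 and 2663 FPKM at 26 °C, against 4.43, 0 and 21.3 FPKM in controls (log2 7.30, adjusted p = 0.0536). BSL78_13664 had 106, 249 and 1513 FPKM, against 1.42, 0 and 8.61 FPKM in controls (log2 6.91, adjusted p = 0.0809), and BSL78_08844 had 67.8, 359 and 4201 FPKM, against 2.29, 10.6 and 12.2 FPKM (log2 5.89, adjusted p = 0.0875). Their groups did not overlap, but the warmed animals were spread 14.3-fold and 61.9-fold from lowest to highest in the last pair. The sixth model, the alpha-crystallin B-like BSL78_12794, named for the small heat shock protein of the vertebrate lens, had 305, 304 and 241 FPKM at 26 °C and 278, 194 and 86.8 FPKM in controls. It was already abundant at 18 °C and its groups overlapped (log2 0.75, adjusted p = 0.797). Summed FPKM of the 6 models came to 2197, 5411 and 20223 in 26 °C 6 h animals, against 298, 236 and 208 in controls.

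HSP70 is the main inducible chaperone of animal cells, which binds and releases unfolded stretches of protein in a cycle driven by ATP. All 9 models of the list were tested, and 2, neighbours on the same scaffold, rose. BSL78_15519 (scaffold MRZV01000570.1, 221474 to 225378, forward strand, coding length 1932) had 1518, 1673 and 7735 FPKM in 26 °C 6 h animals, against 7.64, 1.43 and 23.6 FPKM in controls (log2 8.39, SE 0.83, adjusted p = 0.000938). BSL78_15518 (scaffold MRZV01000570.1, 197280 to 200838, forward strand, coding length 1515) had 229.7, 647 and 1916 FPKM at 26 °C, against 4.87, 1.46 and 13 FPKM in controls (log2 6.81, SE 1.06, adjusted p = 0.0461). Animal 3 was again highest among the warmed animals, and among controls too.

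The 7 other HSP70 models missed the threshold, and in all 7 the warmed animals lay above every control. BSL78_02892 had 159, 1425 and 7018 FPKM at 26 °C, against 1.85, 2.63 and 51.9 FPKM in controls (log2 7.16, adjusted p = 0.0666), and BSL78_02893, which lies 119 bases away on the same strand, had 47.6, 421 and 3935 FPKM, against 0, 2.46 and 22 FPKM (log2 6.65, adjusted p = 0.153). BSL78_19537 had 51.5, 101 and 396 FPKM at 26 °C, against 0, 2.46 and 0.389 FPKM in controls (log2 6.25, adjusted p = 0.0666). In each of these the warmed animals lay above the controls in the same order, animal 1 lowest and animal 3 highest. Their name is shared by 7 models, so the split of reads between near-identical copies is uncertain. BSL78_02917 had a log2 difference of 6.23 (adjusted p = 0.0666), BSL78_19536 of 4.68 (0.290) and BSL78_14632 of 4.68 (0.0949). The model with the smallest difference, BSL78_19609, was also the most even among the warmed animals, with 299, 334 and 209 FPKM at 26 °C, against 4.19, 19.2 and 53.4 FPKM in controls (log2 3.95, adjusted p = 0.287).

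The heat shock cognate HSC70 is the HSP70 of unstressed cells. Of its 14 models, 11 were tested and 0 passed the adjusted test. The most abundant, BSL78_08507, had 822, 985 and 1002 FPKM in 26 °C 6 h animals, against 210.0, 128 and 236 FPKM in controls (log2 2.32, adjusted p = 0.213), and its neighbour BSL78_08508, 82 bases away, had 263, 379.7 and 576 FPKM, against 53.7, 36.2 and 119 FPKM (log2 2.63, adjusted p = 0.213). In level, BSL78_08507 stood above each HSP70 model in every control animal, and below BSL78_15519 in every warmed animal. In 5 of the 11 models, or 3 with libraries rescaled to a common sum, all warmed animals lay above all controls, and the median log2 difference was 0.89, with a range of -2.60 to 2.63. The low end was BSL78_03200, at 0, 0 and 0.886 FPKM at 26 °C and 0, 37.9 and 9.69 FPKM in controls (3 reads against 183, adjusted p = 0.618).

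HSP90 completes the folding of kinases, hormone receptors and other signalling proteins. All 6 models of HSP90 and its helpers were tested and 0 passed, although in all 6 the warmed animals lay above every control. HSP90-alpha 3 BSL78_26676 (scaffold MRZV01001666.1, 97856 to 107219, reverse strand, coding length 2262) had 3763, 3876 and 4970.1 FPKM in 26 °C 6 h animals, against 56, 127 and 146 FPKM in controls, a log2 difference of 5.35 (SE 0.89, adjusted p = 0.0516), just short of the threshold. The warmed animals were close to each other, the highest being 1.32 times the lowest. Of its helpers, the activator Aha1 BSL78_20250, which speeds the ATPase of HSP90, had 172, 238 and 1228 FPKM at 26 °C, against 8.92, 11.9 and 23.1 FPKM in controls (log2 4.67, adjusted p = 0.0654). The stress-induced phosphoprotein BSL78_07970, known as Hop and a bridge between HSP70 and HSP90, had 147, 184 and 468 FPKM, against 7.94, 16.9 and 13.8 FPKM in controls (log2 4.13, adjusted p = 0.118). The model next to it on the same strand, BSL78_07969, is described by the file as a TPR domain of Hop and was picked after its values were seen. It had 57.6, 103 and 261 FPKM, against 2.92, 0.692 and 9.87 FPKM in controls (log2 4.81, adjusted p = 0.0875). Both neighbours were higher in each warmed animal than in any control. The Cdc37-like models BSL78_11299 and BSL78_29596, named for the helper that brings kinases to HSP90, each had a log2 difference of 3.25 (adjusted p = 0.177 and 0.205).

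The helpers of HSP70 were mixed. The list held 38 models (DnaJ proteins, which deliver clients and start the ATP cycle, BAG and HSP110 exchange factors and heat shock factor), of which 36 were tested and 0 passed. In 8 all warmed animals lay above all controls and in 4 all below, and the median log2 difference was -0.24. The 97 kDa heat shock protein BSL78_03223, a large relative of HSP70, had 119, 164 and 909.9 FPKM at 26 °C, against 5.79, 14.02 and 12.1 FPKM in controls (log2 4.57, adjusted p = 0.0663). DnaJ B1-like BSL78_01137 had 61.8, 124 and 1141 FPKM, against 6.17, 8.14 and 37.8 FPKM in controls (log2 3.93, adjusted p = 0.281), and DnaJ B3-like BSL78_04610 had 51.7, 82.6 and 258 FPKM, against 10.9, 2.97 and 17.2 FPKM (log2 3.46, adjusted p = 0.220). BAG3 BSL78_05946, which in mammals joins HSP70 to small heat shock proteins, had 6.69, 10.2 and 188 FPKM at 26 °C, against 0.442, 0.314 and 3.59 FPKM in controls (log2 3.62, adjusted p = 0.330), with animal 3 far above the other two. With libraries rescaled to a common sum, 4 rather than 8 of the list lay above all controls and 6 below. The shares over all genes were then 2.43% and 7.65%. DnaJ C13 BSL78_20450, a protein of endosomes in mammals, had 1.58, 2.52 and 3.14 FPKM, against 4.76, 5.10 and 4.65 FPKM in controls (log2 -0.80, adjusted p = 0.730), each control above each warmed animal.

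**Figure D2:**
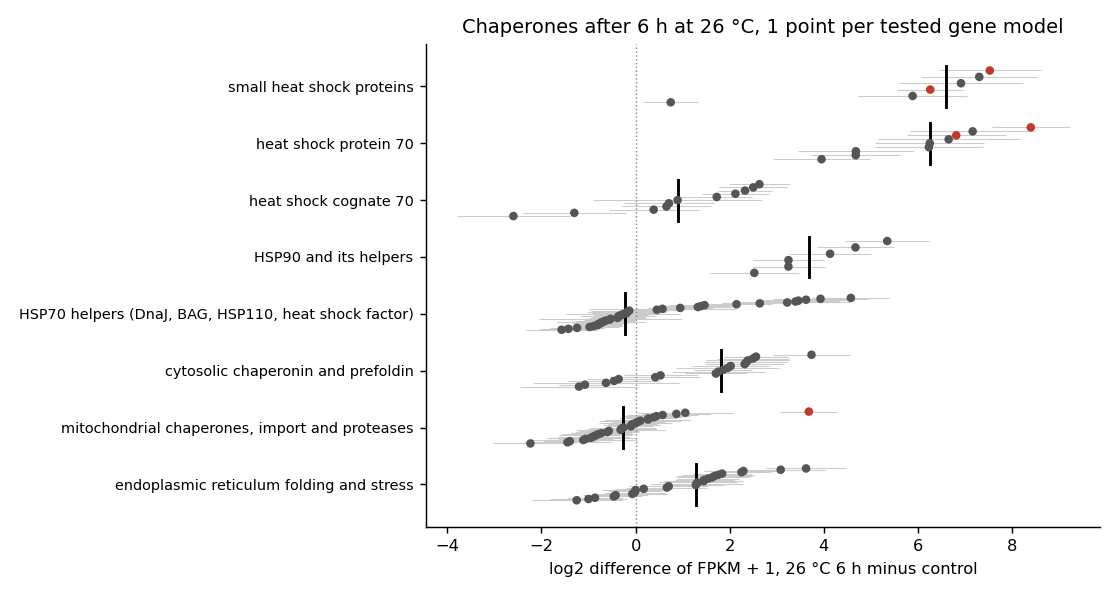
Log2 difference of FPKM + 1 (26 °C 6 h minus control) of each tested model of the 5 heat shock lists and of 3 further chaperone lists, with 1 point per model, its standard error in grey, models past the test in red and the list median as a black bar. The HSP70 and HSP90 lists lie wholly to the right of 0, whereas the HSP70 helpers and the mitochondrial list lie on both sides.

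Together the 5 heat shock lists held 73 models, 68 of them tested. They took 1.45, 2.39 and 6.41% of the reads on genes in 26 °C 6 h animals 1 to 3, against 0.0710, 0.131 and 0.3% in control animals 1 to 3 (3.42% ± 2.63 against 0.167% ± 0.119, SD, n = 3 each). The exact two-sided permutation p was 0.1, the smallest possible with 3 animals against 3. The lists were chosen with earlier results of these data known, so this p is no independent support. The lowest warmed animal stood above the highest control, and the 95% Wilson intervals, which cover counting error only, were 1.43 to 1.47% for it and 0.294 to 0.306% for that control. Without warmed animal 3 the difference of the means was 1.75 percentage points, against 3.25 with it. Animal 3 was the highest of the warmed animals, or tied for highest, in 48 of the 68 tested models. Animal 1 was the lowest, or tied for lowest, in 44. The same shares over all genes were not counted. In the thinned libraries animal 3 also had the most genes detected of the warmed animals (16661) and animal 1 the fewest (12707).

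**Figure D3:**
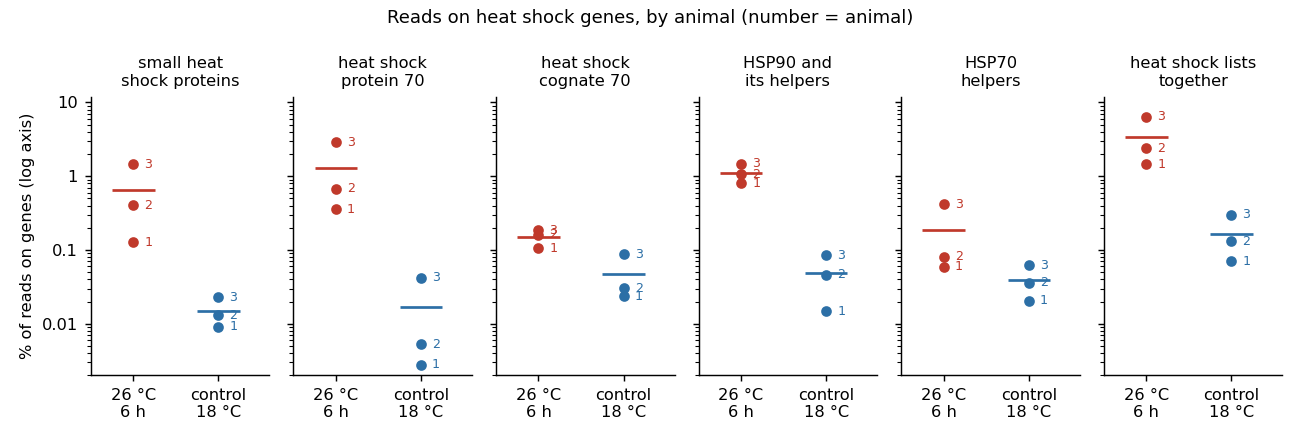
Share of reads on genes, in percent on a log axis, taken by each heat shock list and by all 5 together, with 1 numbered point per animal, 26 °C 6 h in red to the left of control in blue, and a bar at the mean. The groups overlap in no panel but that of the HSP70 helpers, where warmed animal 1 lies below control animal 3.

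The cytosolic chaperonin CCT is a ring that folds actin and tubulin, and prefoldin delivers their chains to it. Of 19 models, 18 were tested and 0 passed, while 10 had all warmed animals above all controls. CCT beta BSL78_11119 had 97.1, 91.6 and 157 FPKM at 26 °C, against 1.90, 5.58 and 30.8 FPKM in controls (log2 3.74, adjusted p = 0.130), and CCT delta BSL78_14696 had 180.1, 256 and 643 FPKM, against 31.4, 68.5 and 64.2 FPKM (log2 2.56, adjusted p = 0.295). The median over the list was 1.81 on the log2 scale. With each library rescaled to a common sum, 6 rather than 10 lay above all controls, while the share over all genes fell from 4.81% to 2.43%. Prefoldin 2 BSL78_25753 stood on the lower side, with 13.3, 9.68 and 15.1 FPKM at 26 °C, against 34.4, 24.4 and 24.7 FPKM in controls (log2 -1.08, adjusted p = 0.660).

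In the mitochondrial list all 29 models were tested and 1 rose. The chaperonin Hsp56 BSL78_09882 (scaffold MRZV01000295.1, 621241 to 627617, forward strand, coding length 1854), which the file names as mitochondrial, had 1059, 925 and 1328 FPKM in 26 °C 6 h animals, against 47.4, 123 and 102 FPKM in controls (log2 3.68, SE 0.61, adjusted p = 0.0496). The warmed animals were close together and all above the controls. Beside it on the scaffold, head to head with 2610 bases between the models, lies the hypothetical BSL78_09881 (scaffold MRZV01000295.1, 616342 to 618630, reverse strand, coding length 312), which also rose, with 2572, 1606 and 1981 FPKM at 26 °C, against 107, 189.5 and 128 FPKM in controls (log2 3.86, SE 0.52, adjusted p = 0.0179). The model on the far side of the hypothetical, citrate synthase BSL78_09880, had 23.6, 12.7 and 14.5 FPKM at 26 °C and 15.8, 22.96 and 23.2 FPKM in controls (log2 -0.30, adjusted p = 0.927). The median of the whole mitochondrial list was -0.26, and apart from Hsp56 no model had all warmed animals above all controls. The mitochondrial HSP90, named by its 75 kDa size (BSL78_15757), had 0.460, 4.18 and 1.21 FPKM, against 3.68, 6.07 and 8.26 FPKM in controls (log2 -1.40, adjusted p = 0.564), and the import pore subunit Tim17-B BSL78_15666 had 2.42, 0 and 3.48 FPKM, against 18.5, 12.5 and 5.06 FPKM (log2 -2.23, adjusted p = 0.491).

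Chaperones of the endoplasmic reticulum were measured in 29 models, 26 of them tested, and 0 passed. In 9 all warmed animals lay above all controls and in 1 all below, and the median log2 difference was 1.29. GRP78 BSL78_16330, the HSP70 of this compartment, had 763, 919.6 and 525 FPKM at 26 °C, against 29.6, 64.5 and 98.1 FPKM in controls (log2 3.62, adjusted p = 0.177). Calreticulin BSL78_13982, which holds glycoproteins while they fold, had 819, 955 and 361 FPKM, against 62.9, 166 and 246 FPKM in controls (log2 2.25, adjusted p = 0.319). In both, animal 3 was the lowest of the warmed animals. With libraries rescaled to a common sum, 3 rather than 9 models of the list lay above all controls. The share over all genes fell too, from 4.81% to 2.43%. After that rescaling the list median was 1.34 above that of all genes. ATF-6 alpha BSL78_12429 and beta BSL78_12430, sensors of misfolding in this compartment, were low, the alpha model having 0, 0.373 and 1.48 FPKM at 26 °C and 1.49, 1.33 and 2.52 FPKM in controls and the beta model 0, 0 and 0.642 FPKM and 0.974, 2.77 and 1.97 FPKM in those groups.

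Several called genes had neighbours with differences of the same sign. DPH3-like BSL78_21247, named for a protein that helps to build diphthamide on elongation factor 2, lies head to head with HSP26 BSL78_21248, 547 bases away. It had 135, 131 and 300.3 FPKM at 26 °C, against 9.36, 8.88 and 14.2 FPKM in controls (log2 3.92, adjusted p = 0.0654). On the other side of the same HSP26 model, BSL78_21249 had 283, 151 and 17.4 FPKM at 26 °C, against 12.2, 18.3 and 14.6 FPKM in controls (log2 2.55, adjusted p = 0.462). Its warmed animal 3 lay within the range of the controls, whereas that animal was the highest for HSP26 BSL78_21248. HSP26 BSL78_13662 and BSL78_13663 also lie head to head, 1208 bases apart, whereas BSL78_13661 on the far side had a log2 difference of -0.49 (adjusted p = 0.880). The files do not state whether counting used strand, so reads of overlapping transcripts could be shared between such neighbours.

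The hypothetical model BSL78_29774 (scaffold MRZV01002579.1, 21971 to 23337, reverse strand, coding length 756) rose, with 41.01, 13.9 and 24.1 FPKM at 26 °C, against 0, 0 and 0.174 FPKM in controls (log2 4.57, SE 0.70, adjusted p = 0.0461). It rests on 156 reads against 1, a ratio of 258 after scaling, with a 95% counting interval of 45.6 to 10251. The models on either side are serine protease genes by name, polyserase-2 BSL78_29773 with 61.1, 0 and 21.95 FPKM, against 0, 0 and 0 FPKM in controls, and suppressor of tumorigenicity 14-like BSL78_29775, named for the protease matriptase, with 0, 30.2 and 13.1 FPKM, against 0.451, 0 and 0 FPKM. Neither passed the test (adjusted p = 0.381 and 0.491), and each was at 0 in 1 of the warmed animals. The hypothetical model BSL78_09307 (scaffold MRZV01000273.1, 607060 to 607971, forward strand, coding length 912) rose too, with 19.3, 19.6 and 27.2 FPKM at 26 °C, against 0, 3.33 and 0.288 FPKM in controls (log2 3.68, SE 0.59, adjusted p = 0.0496). Its neighbour BSL78_09306, 94 bases away on the same strand, had 2.02, 9.55 and 9.86 FPKM, against 0.245, 0.872 and 0.912 FPKM (log2 2.09, adjusted p = 0.453). All 3 warmed animals lay above the controls in both.

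On the lower side 3 models fell. Monocarboxylate transporter 6 BSL78_15659 (scaffold MRZV01000578.1, 509528 to 514457, forward strand, coding length 1158), of a family of membrane carriers for lactate and related acids, had 0, 1.01 and 1.11 FPKM in 26 °C 6 h animals, against 11.7, 17.9 and 11.7 FPKM in controls (log2 -3.17, SE 0.50, adjusted p = 0.0496). Each control lay far above each warmed animal. Its neighbour of the same name, BSL78_15660, 233 bases away on the same strand, had 16.1, 2.50 and 1.65 FPKM at 26 °C, against 25.9, 38.6 and 25.1 FPKM in controls (log2 -2.48, adjusted p = 0.406). The ribonucleoprotein hnRNP L, model BSL78_06952 (scaffold MRZV01000187.1, 215598 to 219356, reverse strand, coding length 681), a regulator of splicing in mammals, had 1.57, 0 and 1.13 FPKM at 26 °C, against 23.4, 21.9 and 20.6 FPKM in controls (log2 -3.70, SE 0.61, adjusted p = 0.0496). The 3 controls were within a narrow band and the warmed animals near 0.

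The hypothetical model BSL78_11524 (scaffold MRZV01000364.1, 467869 to 469164, reverse strand, length 422, not a multiple of 3) fell as well. The file gives it an F5/F8 type C domain, found in many cell-surface and secreted binding proteins. BSL78_11524 had 0, 0.919 and 1.21 FPKM at 26 °C, against 52.5, 14.4 and 20.5 FPKM in controls (log2 -4.01, SE 0.65, adjusted p = 0.0496). That is 3 reads against 145, a ratio of 29.2 for control over 26 °C (95% counting interval 9.81 to 143). The low values of all 3 models were close to what a few reads give, and the mean number of genes detected in the thinned libraries was lower at 26 °C, with groups that overlapped, as given above. The part of that in the fall was not tested.

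Other named genes missed the threshold on the higher side. A short model described as a starfish sperm peptide transposon (BSL78_10877) had 21.6, 32.7 and 70.7 FPKM at 26 °C, against 0 FPKM in each control, at least 15.5-fold higher on the floor of 3 reads per library (adjusted p = 0.0654). SMARCA5-like BSL78_18924, the motor of chromatin remodelling complexes that space nucleosomes, had 37.8, 33.5 and 103 FPKM, against 3.15, 3.77 and 5.81 FPKM in controls (log2 3.34, adjusted p = 0.0666). A RISC-loading complex subunit BSL78_00633, a partner of Dicer in small RNA handling, had 14.8, 11.5 and 31.5 FPKM, against 0, 0 and 1.25 FPKM in controls (log2 3.83, adjusted p = 0.0666). The actin-binding kelch protein IPP-like BSL78_19230 had 12.9, 15.3 and 32.4 FPKM at 26 °C, against 0, 0 and 1.92 FPKM in controls (log2 3.78, adjusted p = 0.0654). Their groups did not overlap in any of the 4.

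Of the named genes that missed the threshold on the lower side, arachidonate 5-lipoxygenase BSL78_27251, the enzyme that opens the leukotriene pathway in mammals, had 1.20, 0.872 and 0.384 FPKM at 26 °C, against 23.3, 9.73 and 31.2 FPKM in controls (log2 -3.51, adjusted p = 0.0645). Receptor-type tyrosine phosphatase epsilon BSL78_14713 had 2.77, 0 and 0.554 FPKM, against 15.1, 14.2 and 13.97 FPKM (log2 -3.10, adjusted p = 0.0666). Zinc transporter ZIP12 BSL78_21930, which brings zinc into cells, was the most abundant of them, with 17.7, 30.6 and 19.997 FPKM at 26 °C, against 171, 84.8 and 179 FPKM in controls (log2 -2.58, adjusted p = 0.127). For these 3 every control lay above every warmed animal.

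DMBT1-like BSL78_12110, a scavenger receptor of mucosal surfaces in mammals, had 0, 5.55 and 0 FPKM at 26 °C, against 51.04, 53.8 and 14.3 FPKM in controls (log2 -4.23, adjusted p = 0.0875). A model of receptor interacting protein kinase 1b (BSL78_11825), a kinase of cell death and NF-kappaB signalling, had 0, 0 and 3.35 FPKM, against 49.5, 9.03 and 42.9 FPKM (log2 -4.11, adjusted p = 0.0875). In both, 2 warmed animals were at 0. The ketimine reductase mu-crystallin-like BSL78_09064 had 0, 0 and 0.769 FPKM, against 27.2, 52 and 6.18 FPKM (3 reads against 305, a control over 26 °C ratio of 61.5, 95% counting interval 20.8 to 299.9, adjusted p = 0.0875), and the aldolase of hydroxyproline breakdown BSL78_01153 had 1.63, 0.394 and 2.08 FPKM, against 15, 18.8 and 14.7 FPKM (adjusted p = 0.0949). Others of this set had no read in any warmed animal. Low molecular weight phosphotyrosine phosphatase BSL78_25632 had 8.09, 29.7 and 5.93 FPKM in controls, at least 3.56-fold lower at 26 °C, and calcium-activated chloride channel regulator 1-like BSL78_05215 had 3.96, 3.36 and 15.8 FPKM in controls, at least 13.5-fold lower at 26 °C (adjusted p = 0.130 and 0.137).

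The remaining gene lists stood closer to the background, as the bars for all lists show. Of 381 innate immunity models, 231 were tested, 1 rose (the IMD-like protein) and 0 fell. Among them 13 had all warmed animals above all controls and 12 all below, or 5 above and 10 below with libraries rescaled to a common sum, and the median log2 difference was 0.02, or -0.18 rescaled. A protein with NACHT and WD repeat domains, BSL78_12729, had 7.69, 17.6 and 18.4 FPKM at 26 °C, against 7.36, 0.209 and 1.69 FPKM in controls (log2 2.28, adjusted p = 0.392). Of 74 models of apoptosis and cell death, 62 were tested and 0 passed. FADD BSL78_09119, the adaptor that death receptors use to recruit caspases, had 10.9, 7.91 and 8.20 FPKM, against 5.66, 0.804 and 3.82 FPKM in controls (log2 1.36, adjusted p = 0.576), and apoptosis inhibitor 5 BSL78_25401 had 0, 3.04 and 3.35 FPKM, against 9.14, 9.03 and 25.4 FPKM (log2 -2.42, adjusted p = 0.347).

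**Figure D4:**
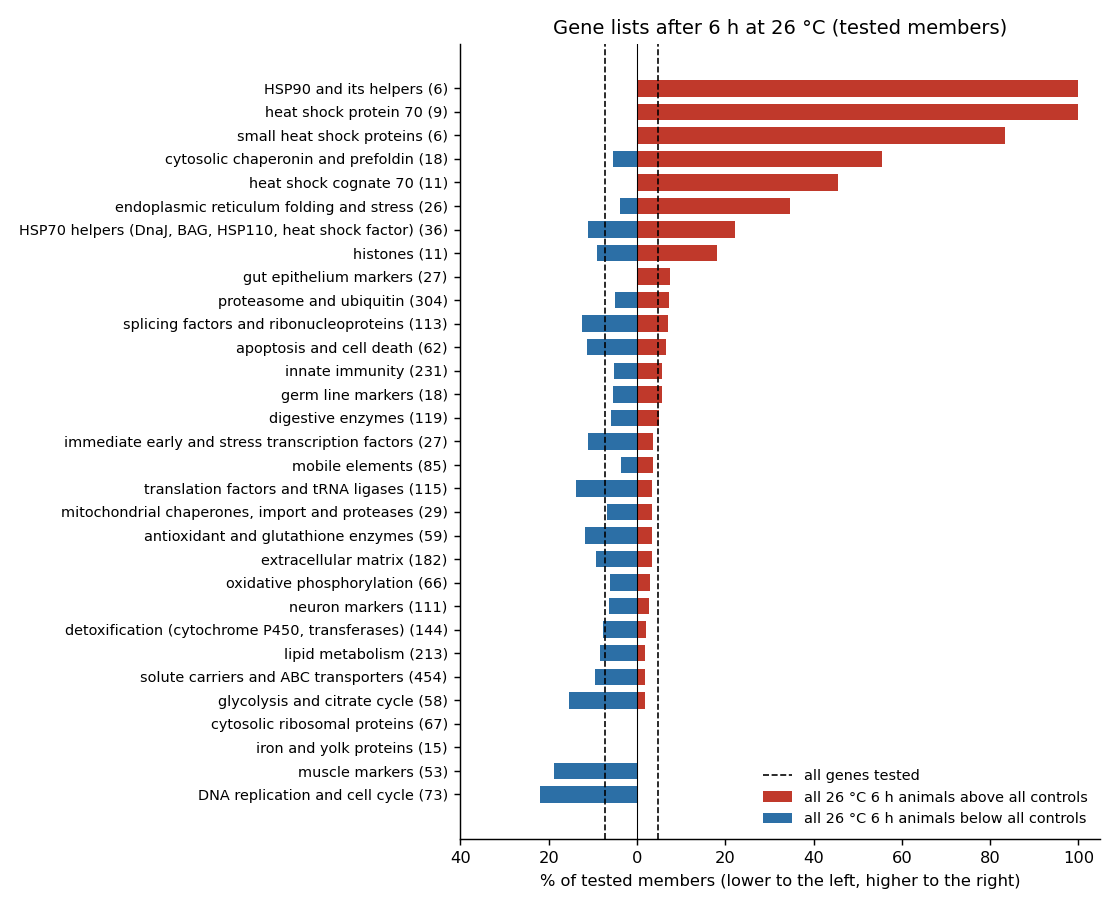
Percent of the tested members of each of 31 gene lists whose 26 °C 6 h animals all lie above (red, to the right) or all below (blue, to the left) the 3 controls, with the number tested in brackets and the shares over all genes tested, 4.81% and 7.15%, as dashed lines. Chaperone lists fill the top of the plot, apart from the mitochondrial list, and the lists of DNA replication and cell cycle and of muscle markers have the longest bars to the left and none to the right.

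In protein breakdown, of 401 proteasome and ubiquitin models, 304 were tested and 0 passed, with 22 above and 15 below all controls. With libraries rescaled to a common sum, 9 lay above and 18 below, beside 2.43% and 7.65% over all genes. The ubiquitin ligase HERC4 BSL78_21302 had 6.64, 11.7 and 9.88 FPKM at 26 °C, against 0.867, 0.0880 and 1.42 FPKM in controls (log2 2.58, adjusted p = 0.177), while Hakai-like BSL78_22573, named for a ligase that acts on E-cadherin in mammals, had 0, 0.647 and 2.35 FPKM, against 8.42, 6.68 and 5.80 FPKM (log2 -2.16, adjusted p = 0.323). Of 30 immediate early and stress transcription factors, 27 were tested and 0 passed. There were 1 above (3.70%) and 3 below all controls (11.1%), beside 4.81% and 7.15% over all genes. The list median was 0.36, with 17 of the 27 above 0. Myc BSL78_07310, a driver of growth and ribosome synthesis, had 2.31, 11.7 and 8.40 FPKM at 26 °C and 12.1, 18.1 and 13.6 FPKM in controls (log2 -1.07, adjusted p = 0.736).

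Of 121 models of translation factors and tRNA ligases, 115 were tested and 0 passed. There were 4 above (3.48%) and 16 below all controls (13.9%), beside 4.81% and 7.15% over all genes. With libraries rescaled to a common sum, 2 lay above and 12 below. Elongation factor 2 kinase BSL78_09149, which halts elongation when active, had 7.02, 22.9 and 46.3 FPKM at 26 °C, against 4.15, 2.27 and 7.44 FPKM in controls (log2 2.00, adjusted p = 0.417). Leucyl-tRNA ligase BSL78_15019 had 0, 0.731 and 0.482 FPKM, against 2.93, 4.68 and 3.71 FPKM in controls (2 reads against 28, adjusted p = 0.396). Of 117 splicing factors and ribonucleoproteins, 113 were tested and 1 fell, the ribonucleoprotein L given above. In this list 8 lay above (7.08%) and 14 below all controls (12.4%), beside the same shares over all genes. With libraries rescaled to a common sum, 3 lay above and 17 below. PUF60 BSL78_01323, a factor that helps to choose splice sites, had 44.1, 167 and 34.8 FPKM at 26 °C, against 476, 436 and 269 FPKM in controls (log2 -2.56, adjusted p = 0.295). All 67 cytosolic ribosomal proteins were tested, and as deposited in none did the groups separate, whereas with libraries rescaled to a common sum 4 lay below all controls and 0 above. The median was 0.19, or -0.09 rescaled, and the list took 17.5% ± 3.95 of the reads at 26 °C, against 20.8% ± 6.38 in controls (SD, n = 3 each).

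Of 99 models of DNA replication and the cell cycle 73 were tested and 0 passed, and 16 of the 73 (21.9%) had all warmed animals below all controls, beside 7.15% over all genes, and 0 above. Centromere protein X BSL78_07049, a small histone-fold protein of the kinetochore, had no read in any warmed animal, against 9.12, 9.08 and 12.3 FPKM in controls, at least 1.84-fold lower at 26 °C (adjusted p = 0.0666). Centromere protein L-like BSL78_01259 had 0, 0 and 0 FPKM at 26 °C, against 4.08, 3.63 and 1.38 FPKM in controls (adjusted p = 0.323). The median log2 difference was -0.35. With libraries rescaled to a common sum 18 lay below all controls and 0 above, and the median was -0.57, which is -0.28 relative to that of all genes. These models are mostly low, and the mean number of genes detected in the thinned libraries, given above, was also lower at 26 °C with overlapping groups, a part that was not tested. Of 15 histone models, whose proteins package new DNA, 11 were tested with a median of 0.00. The core histone model BSL78_14036 had 2859.8, 5189 and 5604 FPKM at 26 °C, against 2622, 1832 and 2334 FPKM in controls (log2 0.96, adjusted p = 0.668).

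Of 72 muscle markers 53 were tested and 0 passed. In 10 (18.9%) all warmed animals lay below all controls and in 0 above, beside 7.15% and 4.81% over all genes. The median was -0.55. With libraries rescaled to a common sum 15 lay below and 0 above, beside 7.65% and 2.43% over all genes. The list took 0.289, 0.484 and 0.367% of the reads in 26 °C 6 h animals, against 0.499, 0.690 and 0.595% in controls. Titin-like BSL78_02138, of the spring of the muscle fibre, had 0, 0 and 0 FPKM at 26 °C, against 16.8, 5.12 and 0.811 FPKM in controls (at least 2.08-fold lower, adjusted p = 0.522), and another titin-like model, BSL78_02114, had 0, 0 and 0.511 FPKM, against 1.03, 4.04 and 2.62 FPKM (3 reads against 56, adjusted p = 0.513). On the other side, smooth muscle type myosin-11 BSL78_29291 had 7.32, 1.06 and 0.468 FPKM at 26 °C and 0, 0.757 and 0.360 FPKM in controls (log2 1.13, adjusted p = 0.742). The part of a lower muscle share in the fall of any other gene was not tested. Neuron markers took 0.0422, 0.0710 and 0.0656% of the reads at 26 °C, against 0.0717, 0.0753 and 0.135% in controls, with 111 of 245 models tested and a median of -0.07, and 75 of the 245 were at 0 in all 6 libraries. Germ line markers took 0.0117, 0.0118 and 0.00769% at 26 °C, against 0.00775, 0.0151 and 0.0183% in controls, with 18 of 26 tested.

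Of 703 solute carriers and ABC transporters, 454 were tested, 1 fell (the monocarboxylate transporter above) and 0 rose, with 8 above (1.76%) and 43 below all controls (9.47%), beside 4.81% and 7.15% over all genes. A dicarboxylate transporter BSL78_11607 stood on the other side, with 4.82, 2.18 and 7.79 FPKM at 26 °C, against 0, 0.311 and 0.296 FPKM in controls (40 reads against 3, adjusted p = 0.323). Of 65 models of glycolysis and the citrate cycle 58 were tested and 0 passed. There were 1 above (1.72%) and 9 below all controls (15.5%), beside the same shares over all genes. With libraries rescaled to a common sum, 0 lay above and 7 below. Glucose-6-phosphatase 2-like BSL78_17242, which releases free glucose from its phosphate, had 2.02, 30.05 and 55.6 FPKM at 26 °C, against 0.734, 2.35 and 2.36 FPKM in controls (log2 2.70, adjusted p = 0.531), so warmed animals 2 and 3 but not animal 1 were above the controls.

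Of 255 lipid metabolism models 213 were tested and 0 passed. There were 4 above (1.88%) and 18 below all controls (8.45%), beside 4.81% and 7.15% over all genes. With libraries rescaled to a common sum, 2 lay above and 20 below. Fatty acid synthase BSL78_15322 had 1.92, 0.928 and 1.71 FPKM at 26 °C, against 17.8, 6.04 and 5.58 FPKM in controls (log2 -1.95, adjusted p = 0.485), whereas the fatty acid elongase ELOVL6-like BSL78_24467 had 10.4, 30.2 and 36.99 FPKM, against 0, 0 and 0.365 FPKM (87 reads against 1, adjusted p = 0.287). All 66 models of oxidative phosphorylation were tested and 0 passed, with 2 above and 4 below all controls, or 1 above and 4 below with libraries rescaled to a common sum. ATP synthase beta BSL78_24673 had 273, 351 and 371 FPKM at 26 °C, against 521, 876 and 480.4 FPKM in controls (log2 -0.87, adjusted p = 0.704).

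Among defence enzymes, 59 of 66 antioxidant and glutathione models were tested and 0 passed, with 2 above and 7 below all controls, or 1 above and 6 below with libraries rescaled to a common sum. A superoxide dismutase, BSL78_27182, which turns superoxide into peroxide, had 40.8, 0 and 2.23 FPKM at 26 °C, against 50.8, 125 and 42.9 FPKM in controls (log2 -3.68, adjusted p = 0.370), and glutathione S-transferase P BSL78_25504 had 60.2, 66.9 and 42.1 FPKM, against 10.5, 19.1 and 23.4 FPKM (log2 1.66, adjusted p = 0.547). Of 202 detoxification models 144 were tested and 0 passed, with 3 above and 11 below and a list median of -0.31. The sulfotransferase BSL78_29542 had 4.81, 17.4 and 4.61 FPKM at 26 °C, against 0, 0.497 and 0 FPKM in controls (40 reads against 1, adjusted p = 0.136). Of 150 digestive enzymes 119 were tested and 0 passed, with 6 above and 7 below and a list median of -0.18. The intestinal maltase-glucoamylase BSL78_14170 had 8.48, 13.3 and 40.7 FPKM at 26 °C, against 1.46, 4.50 and 2.85 FPKM in controls (log2 2.25, adjusted p = 0.400).

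Of 320 extracellular matrix models 182 were tested and 0 passed, with 6 above and 17 below all controls. Metalloproteinase inhibitor 1-like BSL78_28150, which blocks the enzymes that cut the matrix, had 59.8, 80.4 and 72.3 FPKM at 26 °C, against 17.6, 17.8 and 18.1 FPKM in controls (log2 1.92, adjusted p = 0.323), and tenascin BSL78_03162 had 5.84, 0 and 2.10 FPKM, against 33.97, 11.3 and 15.4 FPKM (log2 -2.79, adjusted p = 0.380). Mobile elements, of which 85 of 569 models were tested, had 3 above and 3 below all controls.

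In the most abundant transcripts the groups overlapped. Iron and yolk proteins, 15 of 16 models tested, took 32.8, 23.1 and 30.3% of the reads in 26 °C 6 h animals, against 33.99, 15.5 and 17.8% in controls. Major yolk protein 2 BSL78_17355, an iron carrier of echinoderm body fluid and gonad, had 135599, 62457 and 78926 FPKM at 26 °C, against 136645, 31798 and 14380.1 FPKM in controls (log2 1.14, adjusted p = 0.758). Ferritin BSL78_19566, which stores iron inside cells, had 51746, 55699 and 84238 FPKM, against 95716, 58961 and 27985 FPKM in controls (adjusted p = 0.973). Control animal 1 was as high in yolk protein as the highest warmed animal, and the other controls lay below all 3. The highest warmed level of HSP26 BSL78_13662 remained below the lowest level of ferritin in these 6 animals.

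The response at 26 °C was then set beside the other heat groups in the same fit. Against 30 °C for 6 h, 9 genes were higher at 26 °C (0.0481%) and 37 lower (0.198%), and against 26 °C for 48 h, the 2 models BSL78_12555 and BSL78_09881 were higher (0.0107%) and 0 lower by limma (547 higher and 766 lower at an unadjusted p below 0.05). These comparisons share the 26 °C 6 h animals with the comparison against control. With libraries rescaled to a common sum, 1 gene differed from 30 °C, and the split at an unadjusted p below 0.05 was 1983 higher and 335 lower, against 935 and 1255 as deposited. Against 48 h that split was 256 higher and 1474 lower after the same rescaling, and pseudocount 0.1 called 1 higher and 3 lower. Leaving out 26 °C 6 h animals 1, 2 and 3 left 5, 5 and 74 calls against 30 °C, and leaving out 30 °C animals 1, 2 and 3 left 4, 1 and 142, where 46 were called with all. Against 48 h, 1, 4 and 1 were called without 26 °C 6 h animals 1, 2 and 3, and 1 without the 48 h animal 1.

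The IMD-like model BSL78_12555 stood out in both comparisons, being at 0 FPKM in all 3 animals at 30 °C and all 3 at 48 h. Its fitted log2 difference was 6.58 against each of them (SE 0.53, adjusted p = 0.000161 in both), the same as against control since all 3 groups were at 0. The hypothetical model BSL78_09881 beside Hsp56 had 2572, 1606 and 1981 FPKM at 26 °C for 6 h, against 94.4, 181 and 170.3 FPKM at 48 h (log2 3.81, SE 0.52, adjusted p = 0.0419) and 307, 439 and 238 FPKM at 30 °C (log2 2.66, adjusted p = 0.0628). Hsp56 itself had 140.1, 170.3 and 165 FPKM at 48 h and 579.7, 1392 and 324 FPKM at 30 °C, and passed in neither comparison (adjusted p = 0.372 and 0.658).

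A pair of hypothetical models were called higher than at 30 °C with the values as deposited. BSL78_29774 had 41.01, 13.9 and 24.1 FPKM at 26 °C for 6 h, against 0, 0 and 5.45 FPKM at 30 °C (log2 3.75, adjusted p = 0.0490), and BSL78_09307 had 19.3, 19.6 and 27.2 FPKM, against 0.615, 0 and 0.753 FPKM (log2 4.01, adjusted p = 0.0285). Of the 9 models that rose against control, 3 passed as higher than at 30 °C, and the other 6 did not pass in that comparison.

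Several heat shock genes were called lower at 26 °C than at 30 °C with the values as deposited. Rescaled to a common sum, or without 30 °C animal 2, the test called 0 genes lower. HSP26 BSL78_13663 had 169, 1047 and 2663 FPKM at 26 °C for 6 h, against 54234, 165554 and 48087 FPKM at 30 °C (log2 -6.60, adjusted p = 0.0490). The lowest animal at 30 °C was above the highest at 26 °C. HSP26 BSL78_08844 had a log2 difference of -6.98 (adjusted p = 0.0351), HSP70 BSL78_02917 of -6.53 (0.0413) and BAG3 BSL78_05946 of -6.27 (0.0316). HSP26 BSL78_21248, by contrast, had 1993, 3692 and 639 FPKM at 30 °C, overlapping its values at 26 °C (log2 -0.49, adjusted p = 0.826). HSP90-alpha 3 had 8425, 30526 and 1454 FPKM at 30 °C (log2 -0.79, adjusted p = 0.765) and 248, 467 and 742 FPKM at 48 h (log2 3.24, adjusted p = 0.486). Outside the chaperones, tenascin BSL78_03162 had 5.84, 0 and 2.10 FPKM at 26 °C for 6 h, against 162, 47.9 and 208 FPKM at 30 °C (log2 -5.42, adjusted p = 0.0316). Centromere protein X BSL78_07049 had 31.6, 13.01 and 12.9 FPKM at 30 °C, where none of the 26 °C 6 h animals had a read (adjusted p = 0.0285).

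**Figure D5:**
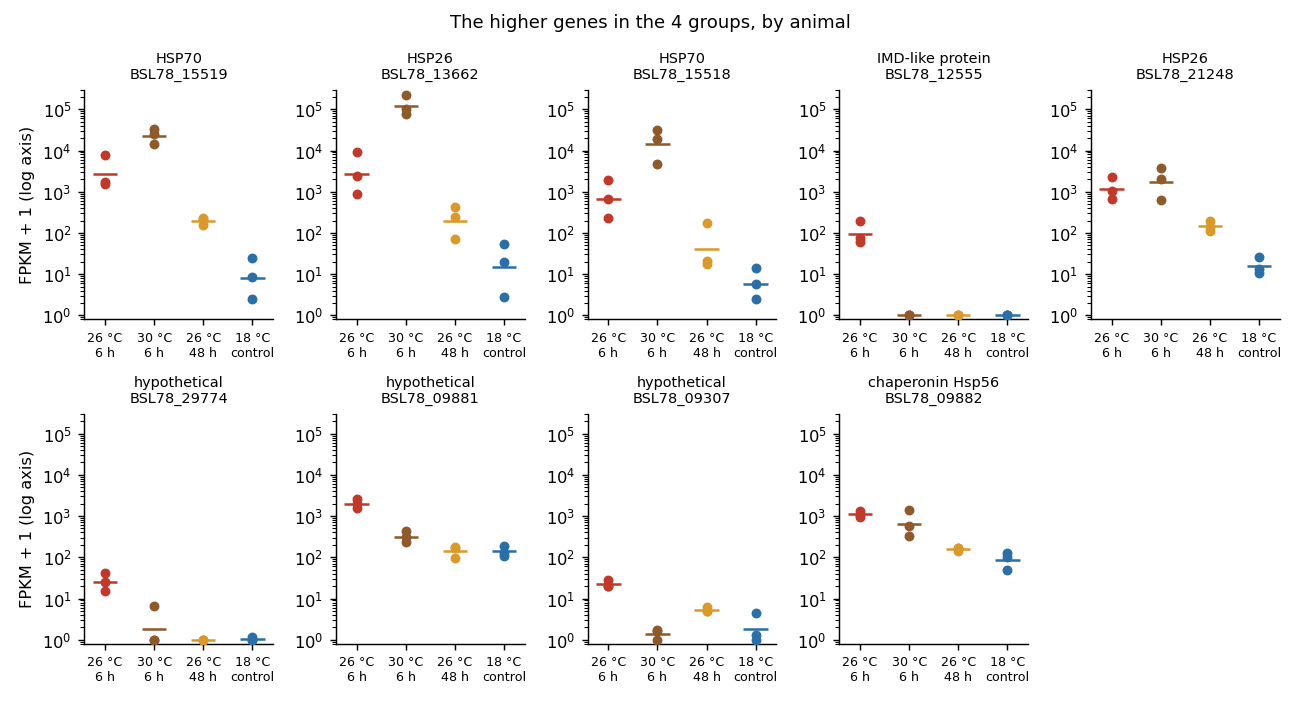
FPKM + 1 on a log axis of the 9 models that rose at 26 °C for 6 h, in each of the 4 groups, with 1 point per animal and a bar at the geometric mean. The IMD-like protein lies above 0 FPKM only at 26 °C for 6 h, and HSP26 BSL78_13662 and both HSP70 models are highest at 30 °C. HSP26 BSL78_21248 also has a higher bar at 30 °C than at 26 °C for 6 h, with points that overlap.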

How the data were processed

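RNA of single intestines was made into TruSeq libraries and sequenced on a HiSeq, per the labels' protocols. The aligner, counter, strand setting and genome build are not given in the sources used here. The authors deposited FPKM for each of 12 libraries, and per the file headers these come with scaffold positions, gene lengths and descriptions. Every FPKM multiplied by length was a whole multiple of a step of its library (100% of values within 0.05 read), from which reads were recovered, and these steps show that the authors had scaled the libraries to each other before deposit. The lengths were multiples of 3 in 94.04% of models, so they are called coding lengths, save that of BSL78_11524, which is no such multiple.

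Values were tested as log2(FPKM + 1) with limma 3.58.1 (R 4.3.3) on the 18729 models with a mean of at least 0.5 FPKM, in a single fit of the 4 groups (8 residual degrees of freedom), two-sided, with Benjamini-Hochberg adjustment and a threshold of 0.05. The fit was also run on simulated data. That simulation gave every gene the same spread and drew the libraries independently, so it cannot vouch for the calls in these animals. Shares and detected genes were compared by an exact permutation test (scipy 1.17.1). Named genes are all called genes, the 15 named models with the smallest p in each direction, the 2 smallest in each direction of each list, the neighbours of called genes, the 10 most abundant models and the heat shock lists. BSL78_07969 lies outside this rule and was chosen after its values were seen. The gene lists and the comparison were chosen with earlier results of these data known, and a few members were dropped or added from their descriptions after the table was seen. Alternatives were another pseudocount, other filters, limma-voom on recovered reads, common-sum and quantile scaling, a fit of 2 groups, array weights, a replicate block and each library left out. Read counts limit the precision, and intervals cover counting error only. No column belonged to another series (0 found).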

Additional observations from a re-analysis of the deposited data

Results flagged for a closer look

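In the common fit of all 12 libraries, several genes described above differed between 26 °C for 6 h and another heat group at an adjusted p below 0.05 (limma). The IMD-like model BSL78_12555 had a log2 difference of 6.58 against 30 °C for 6 h and of 6.58 against 26 °C for 48 h. The hypothetical BSL78_09881 had 3.81 against 48 h, and the hypotheticals BSL78_29774 and BSL78_09307 had 3.75 and 4.01 against 30 °C. In the other direction against 30 °C, HSP26 BSL78_13663 had -6.60 and BSL78_08844 -6.98, HSP70 BSL78_02917 had -6.53 and BAG3 BSL78_05946 had -6.27. Tenascin BSL78_03162 had -5.42, centromere protein X BSL78_07049 had -4.21 and the 4-hydroxy-2-oxoglutarate aldolase BSL78_01153 had -3.30 against 30 °C. With a group at 0 in every library (BSL78_12555 and BSL78_07049) these fitted values depend on the pseudocount and are no bound on the fold. Rescaled to a common sum, or without 30 °C animal 2, the comparison with 30 °C called 1 gene higher and 0 lower. The groups of 3 animals are too small for the test of single outlying samples.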

How the results depend on the processing

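The count of genes changed against control, 12 as reported, was 7 with no filter, 25 among genes averaging 5 FPKM or more, 19 with limma-voom on recovered reads, 19 with array weights, 6 with libraries rescaled to a common sum and 0 in a fit of the 2 groups only. It was 4 to 30 over the 12 fits that left out a library. Pseudocount 0.1 gave 8 and quantile scaling 14. Against 30 °C for 6 h the count of 46 was 1 with the common sum and 1 to 142 with a library left out. Against 26 °C for 48 h the count of 2 was 4 with pseudocount 0.1 and 1 to 4 with a library left out. The 2240 genes whose groups did not overlap were 1037 among genes averaging 5 FPKM or more, 550 higher and 487 lower. The cause of these shifts was not tested, apart from fewer genes or libraries entering some fits. All 12 called genes kept their direction in all 21 settings. The highest adjusted p with a library left out was 0.00280 for BSL78_12555, 0.0109 for BSL78_15519 and 0.0291 for BSL78_21248, and between 0.108 (BSL78_09881) and 0.206 (BSL78_09882) for the other 9. Ferritin BSL78_19566 changed sign, its log2 difference being -0.072 with the common sum, -0.61 with quantile scaling and -0.27 to 0.62 with a library left out. The difference in heat shock share, 3.25 percentage points, was 2.53 as a share of summed FPKM and 1.75 to 4.23 with a library left out. The difference in genes detected, -2245, was -1363 at 5 reads and -3232 to -1255 with a library left out. With the replicate block, 3 genes changed against control (BSL78_12555, BSL78_15519 and BSL78_21248), 17 differed from 30 °C and 1 from 48 h. The labels do not say whether the numbers pair animals across groups. Same-numbered libraries had deviations from their group means correlated between -0.18 and 0.146. Such values from so few animals cannot decide whether they were paired. Each 26 °C 6 h animal correlated best with the control of its own number (0.0255 to 0.0805). Against 30 °C, by contrast, none of them correlated best with its own number. Against 48 h, animals 1 and 3 did and animal 2 did not. Models with few reads in both groups cannot show a difference at this depth.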

Other observations

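The file also assigns protein domains, and 305 domain families had at least 5 tested models. By median log2 difference (26 °C 6 h minus control) the HSP70 domain was highest, with 2.32 over 27 models. In 16 of them all warmed animals lay above all controls, beside 4.81% over all genes. This family includes models of the heat shock lists described above, so it is no separate support for them. The HATPase_c domain, the ATP pocket shared by HSP90 and other enzymes, came next with 1.36 over 6 models, 3 of them above all controls. Among families of immune and death signalling, the BIR domain of inhibitor of apoptosis proteins had a median of 0.91 over 11 models, none of which separated the groups, and the TIR domain of Toll-type receptors had 0.75 over 8 models, 1 of them above all controls. Other families of that kind had medians near 0 or below, with 0.02 over 138 models for NACHT, -0.06 over 14 for Peptidase_C14, the caspase domain, -0.07 over 75 for Death and -0.24 over 6 for CARD. Of the 75 Death models 9 lay above and 4 below all controls, beside 4.81% and 7.15% over all genes. At the low end, PP-binding, the carrier domain of polyketide and peptide synthases, had -1.95 over 5 models, with 3 below all controls. A2M_N_2 came next with -1.18 over 7 models, none of which separated the groups. Peptidase_C1, the domain of lysosomal and digestive cathepsins, had -1.14 over 16 models, with 1 above and 3 below all controls. These medians are descriptions with no test, and families of few models vary widely.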
